A study of Drosophila melanogaster with 8 samples.

Results

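The cuticle protein genes of Drosophila melanogaster were followed on 8 spotted cDNA arrays read in 2 colours. A gene was taken when its symbol in the probe table began with Cpr, Lcp, Ccp84, Twdl or Acp65A, or was Pcp, Edg78E, Edg84A or Edg91, and spots with several symbols were left out. This gave 51 genes of the 6793 named genes on the array. They were 32 Cpr genes, 15 Twdl genes, 2 Ccp84 genes (Ccp84Ab and Ccp84Ae), Lcp65Ac and Pcp. The gene table of RefSeq Release 6 holds 126 genes by the same rule, among them 71 Cpr, 26 Twdl, 7 Ccp84 and 17 Lcp genes, so most of the Lcp group is not analysed here. No spot was named for Acp65A, Edg78E, Edg84A or Edg91.

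All RNA came from whole, untreated larvae of the last instar. On 4 arrays, channel 2 held RNA of DGCalpha1[3] larvae in the Rover background and channel 1 that of Rover larvae. On the other 4, channel 2 held RNA of DGCalpha1[3] larvae in the sitter background and channel 1 that of sitter larvae. DGCalpha1[3] is an allele of Gycalpha99B, which encodes the alpha subunit of soluble guanylyl cyclase, and Rover and sitter are the natural variants of larval foraging. The labels do not say whether the arrays of a background came from separate larvae or extracts, so each p-value reflects the spread between arrays alone, and that spread may be technical. Mutant RNA was thus in channel 2 on every array. A bias of a gene towards a channel could give the same sign on every array of both backgrounds. The part of such a bias in the ratios and calls was not tested. The labels give neither the dye of each channel nor the channel in the numerator. Ratios are therefore described by their sign, and the sign is not tied to the mutant or its control. The log base is not stated either, and base 2 was assumed.

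The larval cuticle is made of chitin fibres in a matrix of structural proteins, secreted by the epidermis under it. Cpr, Lcp, Ccp84 and Pcp proteins belong to the family with the Rebers and Riddiford consensus, a chitin-binding stretch, and Tweedle (Twdl) proteins form a separate insect cuticle family. Most genes of both families are switched on and off around the moults, under the control of pulses of the steroid ecdysone, and different sets serve the larval, pupal and adult cuticle. The digits and capital letter in a name such as Cpr78E give the band of the polytene chromosome where the gene lies. In RNA of whole larvae, fewer epidermal cells and less RNA per cell cannot be told apart. Cuticle genes of one family can be close in sequence, and binding of the transcript of one gene to the cDNA spot of another was not examined.

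The deposited ratios were not centred on 0. The median of the named genes lay between -0.47 and -0.08 on the 8 arrays, and 64.6% to 79.1% of them were negative. A test against 0 therefore calls many genes of average ratio, and counts of calls are given also after each array was centred on its median. The median of the named genes over both backgrounds was then 0.07, instead of -0.23. The Cy5 detector gain was 64 on 5 arrays and 67 or 68 on 3. The median of the 51 cuticle genes was -0.39 at gain 64 and -0.14 at the others, beside -0.30 and -0.13 for all named genes. The 5th percentile of the cuticle genes was -1.20 and -0.59, beside -1.28 and -0.63. Gain 64 was that of Rover 2 to 4 and sitter 2 and 3, so gain and background are mixed in these values. On the sitter arrays alone the medians were -0.15 at gain 64 and -0.06 at gain 68, beside -0.21 and -0.10. The 5th percentiles there were -1.39 and -0.59, beside -1.30 and -0.57. Replicate 1 of each background was of another print lot than replicates 2 to 4 and was hybridised for 15.75 rather than 17.75 hours. The lot is spelled slightly differently on Rover 1 and sitter 1. Both were taken to be of the same lot, called A here, with B for the other arrays. Gycalpha99B itself gave -0.67, -0.96, 0.14 and 0.45 on the Rover arrays and 0.18, -0.52, -0.32 and -0.40 on the sitter arrays. It was called in neither background (limma adjusted p of 0.396 and 0.451), and whether its spots cover the altered stretch is unknown, so it is a weak check of the labels.

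As a group, the cuticle genes lay where the array as a whole lay, with a few genes far to either side. Over both backgrounds their median ratio was -0.26, beside -0.23 for the 6793 named genes and -0.28 for all 19325 tested features. By limma, with p-values adjusted over all features and called under 0.05, 21 of the 51 had a negative mean ratio and 2 a positive one, Cpr73D and TwdlT, while 28 did not pass. The background among the named genes was 44.9% called negative and 2.36% called positive, so 21 of 51, or 41.2%, is close to it. After centring, 13 were negative and 15 positive, against a background of 27.1% and 28.9%. No gene called negative as deposited was called positive after centring, and 13 of the 21 kept their negative call. On single arrays, 13 of the 51 genes (25.5%) were negative on all 8, compared with 31.3% of the named genes, 1 was positive on all 8, and 37 had mixed signs.

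**Figure D1:**
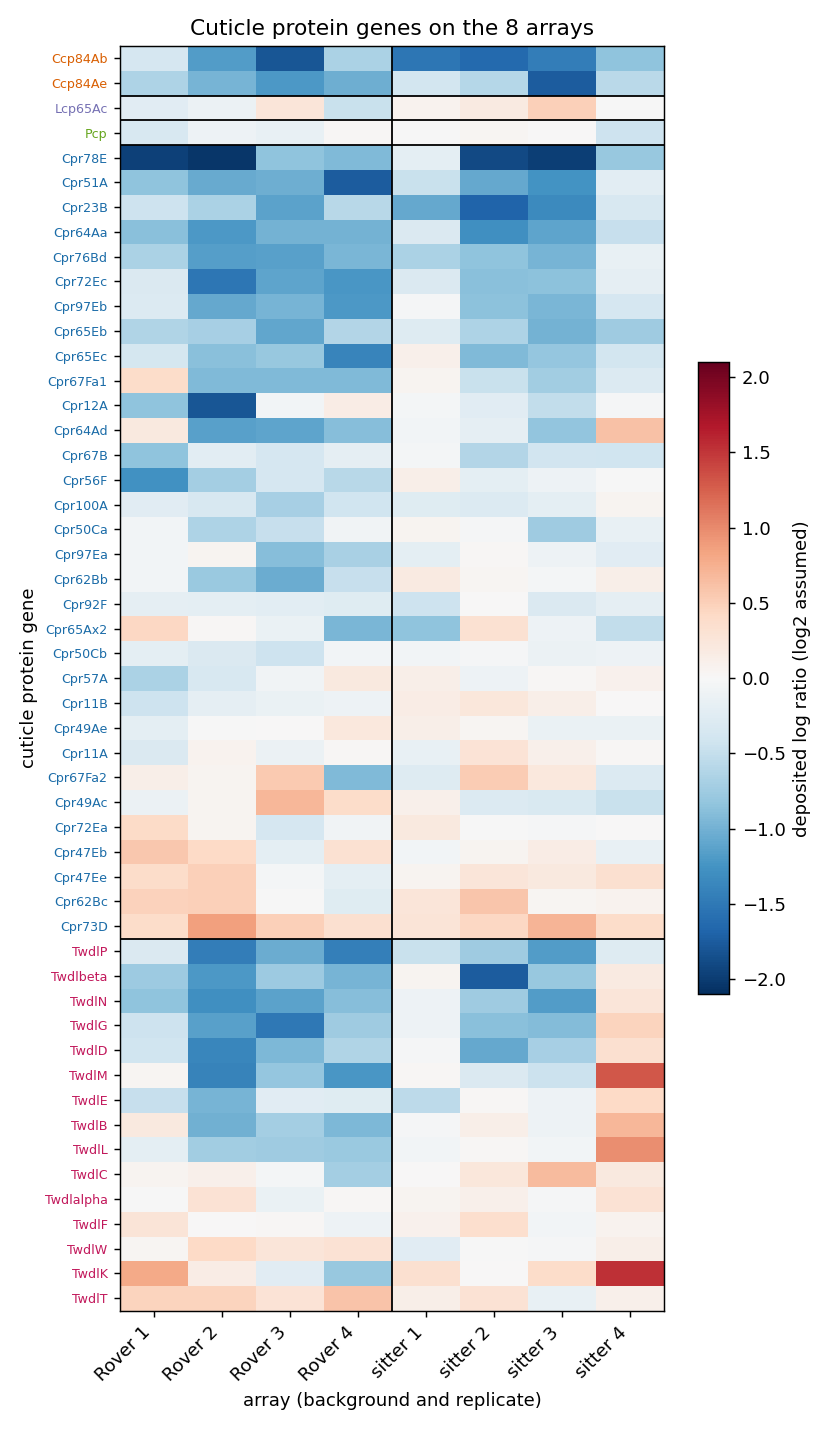
Deposited log ratio of each of the 51 cuticle protein genes (rows, grouped as Ccp84, Lcp, Pcp, Cpr and Twdl and ordered within a group by mean) on each of the 4 Rover and 4 sitter arrays (columns), where blue is negative and red positive. Blue rows stand beside near-white ones in the Cpr and Twdl groups, Cpr73D is red on every array, and most Tweedle genes turn red on sitter 4.

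In Rover, 25 cuticle genes were called negative and 2 positive, with a median ratio of -0.42 beside -0.34 for the named genes. The background was 44.7% negative and 1.72% positive. In sitter, 9 were called negative and 1 positive, with a median of -0.12 beside -0.15, against a background of 20.2% and 0.942%. All 9 genes negative in sitter were also negative in Rover, which is 100% of the sitter set and 36% of the Rover set. Among all named genes the same overlap was 94.8% of the sitter set and 42.8% of the Rover set. After centring the calls were 11 negative and 11 positive in Rover, against a background of 21.2% and 25.2%. They were 6 negative and 1 positive in sitter, against 8.61% and 3.14%. The sitter calls rest on few arrays: without sitter 2 or without sitter 3, 0 of the 51 were called by limma, and 12 and 9 had an unadjusted p under 0.05. This held for the array as a whole, where 24 and 22 features were then called in sitter, beside 4583 with all arrays.

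Both Ccp84 genes, members of a cluster of larval cuticle genes in band 84A, were negative on every array. Ccp84Ab gave -0.35, -1.18, -1.79 and -0.66 on Rover 1 to 4, and -1.52, -1.63, -1.46 and -0.84 on sitter 1 to 4. Ccp84Ae gave -0.65, -0.97, -1.21 and -1.03 on the Rover arrays and -0.39, -0.60, -1.74 and -0.57 on the sitter arrays. The backgrounds overlapped in both genes, and for Ccp84Ab the value nearest to 0 was in Rover. Their means over both backgrounds were -1.18 ± 0.51 and -0.90 ± 0.44 (SD over 8 arrays), with limma adjusted p of 0.00065 and 0.00121, and after centring -0.88 and -0.59 with 0.00246 and 0.00472. Both were also called negative in Rover and in sitter, as deposited and centred, in the fit over all 8 arrays. When sitter 2 or sitter 3 was left out, neither gene was called in sitter. Ccp84Ae was also no longer called in sitter with sitter fitted alone or with print lot as a block. After centring with scaling, Ccp84Ab was not called in Rover (limma adjusted p = 0.158). The Ccp84 median minus that of the named genes was -0.80 over both backgrounds (SD over arrays 0.36) and ran from -1.36 on sitter 3 to -0.28 on Rover 1. The spots of a gene did not always match: those of Ccp84Ab read -0.54 and -2.49 on sitter 1. Those of Ccp84Ae read -2.52 and -0.97 on sitter 3. With 2 genes the subfamily is too small to stand for the cluster.

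Lcp65Ac, a larval cuticle gene of the band 65A cluster, and Pcp, a pupal cuticle gene that lies within an intron of Gart, stayed near 0. Lcp65Ac gave -0.23, -0.13, 0.25 and -0.47 on the Rover arrays and 0.08, 0.19, 0.50 and -0.01 on the sitter arrays. Pcp lay between -0.34 and 0.02 in Rover and between -0.44 and 0.04 in sitter. Neither gene was called as deposited, with limma adjusted p over both backgrounds of 0.872 and 0.247. After centring, Lcp65Ac was called positive at 0.32 with an adjusted p of 0.0303, and Pcp, at 0.18, was not.

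**Figure D2:**
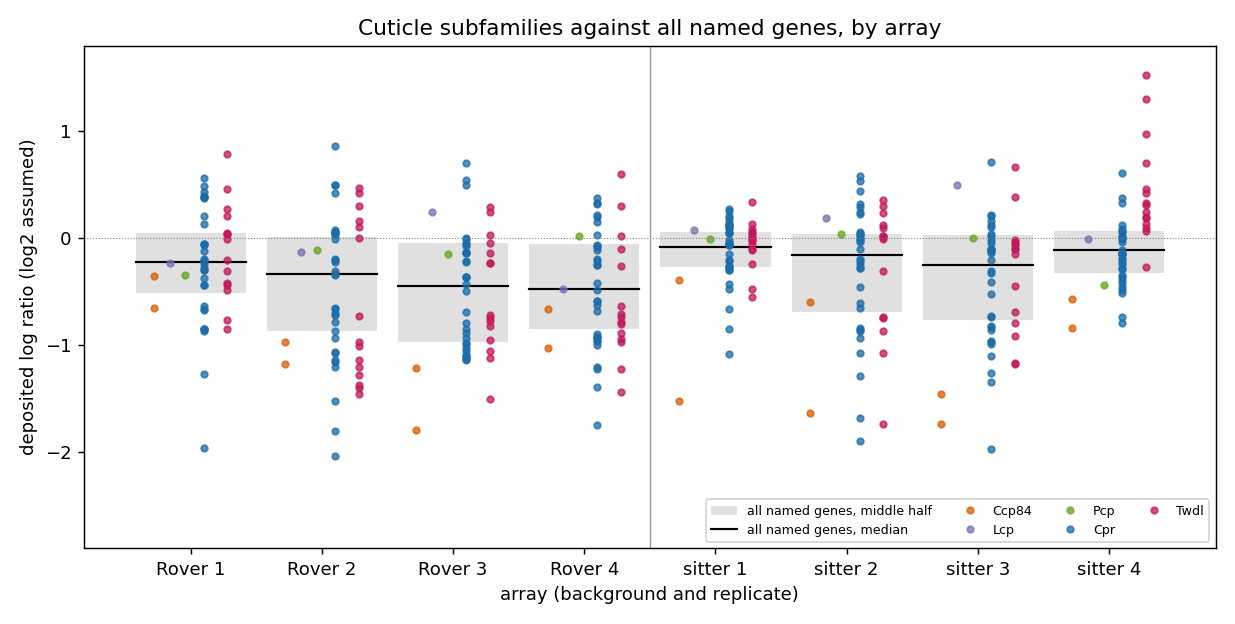
Deposited log ratio of every cuticle protein gene (points, coloured by subfamily) on each array, over the median (line) and the range between the quartiles (grey) of all 6793 named genes. The Ccp84 points lie below the named-gene median on all 8 arrays, the Cpr points straddle it, and the Twdl points lie largely above the grey range on sitter 4.

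The Cpr genes, the main family of chitin-binding cuticle proteins, spread to both sides of the array's median. Their median minus that of the named genes was -0.03 over both backgrounds, with an SD over arrays of 0.03. In Rover 14 of 32 (43.8%) were called negative and 1 positive, close to the 44.7% of named genes called negative. In sitter 6 (18.8%) were negative and 1 positive, beside 20.2%. Over both backgrounds they were 14 and 1, beside 44.9% and 2.36% of the named genes. After centring the counts were 7 negative and 7 positive in Rover, 4 and 1 in sitter, and 9 and 8 over both, where the 15 others did not pass. Of the named genes, 21.2% were then negative and 25.2% positive in Rover, 8.61% and 3.14% in sitter, and 27.1% and 28.9% over both. The means ran from -1.33 for Cpr78E to 0.48 for Cpr73D.

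Cpr78E had the most negative mean of all 51 genes and also varied widely. It gave -1.96, -2.04, -0.85 and -0.92 on the Rover arrays and -0.20, -1.90, -1.97 and -0.79 on the sitter arrays. Both backgrounds thus held values near -2 and values closer to 0 than -1, and sitter 1 stood closest to 0. Over both backgrounds the mean was -1.33 ± 0.72 (SD over 8 arrays, limma adjusted p = 0.0014), and -1.03 after centring (0.00497). Cpr51A gave -0.85, -1.06, -1.03 and -1.75 in Rover and -0.47, -1.07, -1.26 and -0.22 in sitter. Its mean was -0.96 ± 0.47, called in both backgrounds as deposited, but after centring its sitter adjusted p was 0.0586.

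Cpr23B had a less negative mean in Rover (-0.71) than in sitter (-1.11). It gave -0.44, -0.66, -1.13 and -0.59 in Rover and -1.08, -1.68, -1.34 and -0.34 in sitter, so the backgrounds overlapped. Its limma adjusted p was 0.0193 in Rover and 0.0157 in sitter, and after centring 0.196 and 0.029. Cpr64Aa gave -0.87, -1.20, -0.99 and -1.0 in Rover and -0.30, -1.29, -1.10 and -0.48 in sitter, and it was the only cuticle gene below the lower quartile of the named genes on all 8 arrays, where 3.28% of the named genes lie. Cpr76Bd averaged -0.98 ± 0.23 in Rover and -0.66 ± 0.36 in sitter (SD, n = 4 each), and had the smallest limma adjusted p of the cuticle genes over both backgrounds, 0.000603.

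A further group of Cpr genes was negative with means of -0.80 to -0.68 over both backgrounds, namely Cpr72Ec, Cpr97Eb, Cpr65Eb and Cpr65Ec. Each kept its negative call over both backgrounds after centring, with adjusted p between 0.00468 for Cpr65Eb and 0.0227 for Cpr65Ec. In contrast Cpr67Fa1, Cpr56F, Cpr67B, Cpr100A and Cpr92F, with means of -0.48, -0.39, -0.39, -0.30 and -0.22, were called as deposited but not after centring. The 17 Cpr genes that did not pass as deposited had means of -0.42 for Cpr12A and Cpr64Ad up to 0.21 for Cpr62Bc. Among those called positive after centring were Cpr62Bc (0.51), Cpr47Ee (0.49) and Cpr47Eb (0.44).

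Cpr73D was the exception on the positive side. It gave 0.39, 0.86, 0.50 and 0.33 on the Rover arrays and 0.27, 0.44, 0.71 and 0.38 on the sitter arrays. No value was negative, and the backgrounds overlapped throughout. Its mean was 0.52 ± 0.23 in Rover and 0.45 ± 0.19 in sitter (SD, n = 4 each), with limma adjusted p of 0.00796 and 0.032. The Rover call held under all 17 alternatives and the sitter call under 10 of them. The alternatives overlap and are not independent checks. Print lot B alone, Cy5 gain 64 alone and leaving out Rover 1 all rest on Rover 2 to 4. Leaving out a sitter array does not change the Rover mean. Within each array it lay between the 94.6th and the 99.0th percentile of the named genes. It was the only cuticle gene above the upper quartile on all 8 arrays, where 1.02% of the named genes lie.

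**Figure D3:**
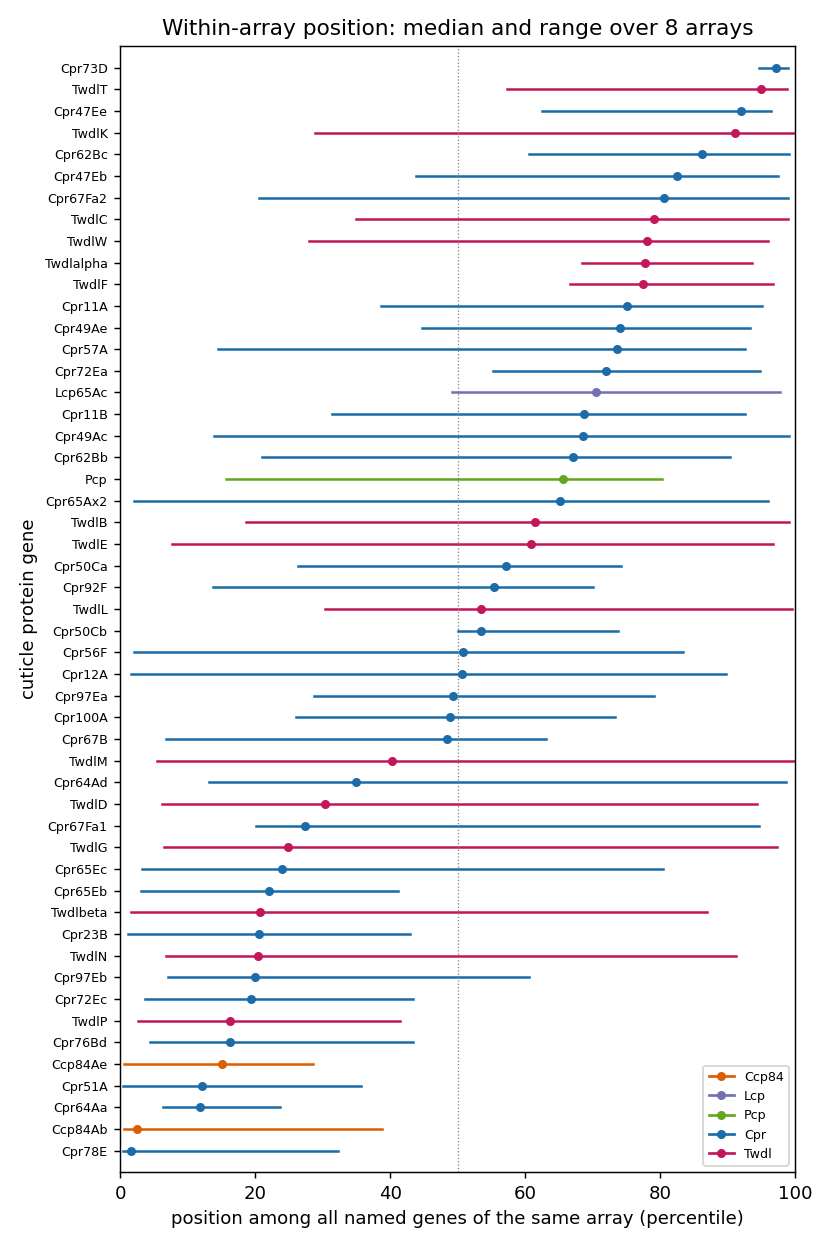
Position of each cuticle protein gene among all named genes of the same array, in percentiles, as the median (point) and the lowest to highest value (line) over the 8 arrays. Cpr73D has a short line at the high end (94.6 to 99.0), Cpr64Aa a short line at the low end (6.3 to 23.6), and most Twdl lines cross the middle.

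The Twdl genes had no common sign. Over both backgrounds 5 of 15 were called negative, TwdlP, Twdlbeta, TwdlN, TwdlG and TwdlD, with means of -0.87, -0.75, -0.74, -0.65 and -0.60, and TwdlT was called positive at 0.27. Of the named genes, 44.9% were called negative and 2.36% positive. Mutations of TwdlD are known to change the body shape of larva and pupa. With print lot as a block Twdlbeta, TwdlG and TwdlD were not called over both backgrounds, with adjusted p of 0.0524, 0.0584 and 0.066. In Rover 9 (60%) were called negative and 1 positive, beside 44.7% of named genes called negative. With print lot as a block, TwdlB, TwdlL, TwdlM and Twdlbeta were no longer called in Rover. Of all features, 7914 were then called in Rover, beside 9019 without the block. After centring 2 were negative and 4 positive in Rover, beside 21.2% and 25.2% of the named genes. In sitter 1 (6.67%) was negative and 0 positive, beside 20.2%. After centring 0 were called in sitter, beside 8.61% of the named genes called negative and 3.14% positive. The median of the family minus that of the named genes was 0.01 over both backgrounds, with an SD over arrays of 0.34, and it ran from -0.64 on Rover 2 to 0.41 on sitter 4. After centring, 6 Tweedle genes were positive over both backgrounds and 2, TwdlP and TwdlN, negative, beside 28.9% and 27.1% of the named genes.

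TwdlP was the one Tweedle gene called in both backgrounds as deposited. It gave -0.31, -1.46, -1.05 and -1.44 in Rover and -0.47, -0.75, -1.18 and -0.27 in sitter. All 8 values were negative. The limma adjusted p was 0.0042 in Rover and 0.0477 in sitter, and after centring 0.0182 and 0.0901. The Rover call held under all 17 overlapping alternatives and the sitter call under 6 of them. Twdlbeta averaged -0.93 ± 0.21 in Rover, where the 4 arrays were all negative, and -0.57 ± 0.89 in sitter, where they ran from -1.74 to 0.19. TwdlN averaged -1.04 ± 0.20 in Rover and -0.44 ± 0.63 in sitter, and TwdlG -0.95 ± 0.46 and -0.36 ± 0.66 (SD, n = 4 each).

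TwdlT gave 0.46, 0.47, 0.29 and 0.60 in Rover and 0.13, 0.30, -0.15 and 0.10 in sitter. It was called positive in Rover (0.46 ± 0.12, limma adjusted p = 0.00815), and in sitter it was not (0.09 ± 0.19, 0.599). The values of Rover and sitter overlapped by a narrow margin, between 0.29 and 0.30. TwdlF, TwdlC, TwdlW and Twdlalpha had means of 0.08, 0.06, 0.11 and 0.08 as deposited, none of them called, and each was called positive after centring. TwdlE averaged -0.49 ± 0.34 in Rover (adjusted p = 0.0459) and -0.05 ± 0.40 in sitter. Its Rover call held under 5 of 17 alternatives, and after centring the Rover value was -0.08 with an adjusted p of 0.736. Tb (Tubby), a Tweedle gene whose symbol falls outside the rule, averaged -0.60 in Rover (limma adjusted p = 0.065) and -0.21 in sitter (0.592).

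The Tweedle genes that lie in a row are TwdlM, TwdlP, TwdlB, TwdlL, TwdlK, TwdlN and TwdlD, with TwdlO, TwdlJ, TwdlH, TwdlR and TwdlS between them in the gene table but not among the named spots. This grouping of 7 was made after the values were seen, and no test was made of it. The median of the 7 was -0.20, -1.28, -0.82 and -0.89 on Rover 1 to 4, and -0.02, -0.31, -0.45 and 0.70 on sitter 1 to 4. On Rover 3 and Rover 4 all 7 were negative. On sitter 4 only TwdlP was negative. The median of the 7 there was the value of TwdlB, at the 99.1th percentile of the named genes of that array. The spots of TwdlB read -0.32 and 1.72 on sitter 4, so this median rests on spots that did not match. Over all 15 Tweedle genes, 14 were positive on sitter 4, where 65.7% of the named genes were negative.

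TwdlM gave 0.04, -1.40, -0.82 and -1.22 in Rover and 0.02, -0.31, -0.45 and 1.3 in sitter. TwdlK gave 0.79, 0.16, -0.23 and -0.80 in Rover and 0.34, 0.01, 0.39 and 1.53 in sitter. TwdlL gave -0.20, -0.73, -0.75 and -0.78 in Rover and -0.05, 0.02, -0.05 and 0.98 in sitter. Each had its highest value on sitter 4, and only in TwdlL did the 4 Rover arrays all lie below the 4 sitter arrays. TwdlB gave 0.21, -1.01, -0.72 and -0.94 in Rover and -0.02, 0.12, -0.10 and 0.70 in sitter, but its spots on sitter 4 read -0.32 and 1.72, the widest gap of any cuticle gene on an array.

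**Figure D4:**
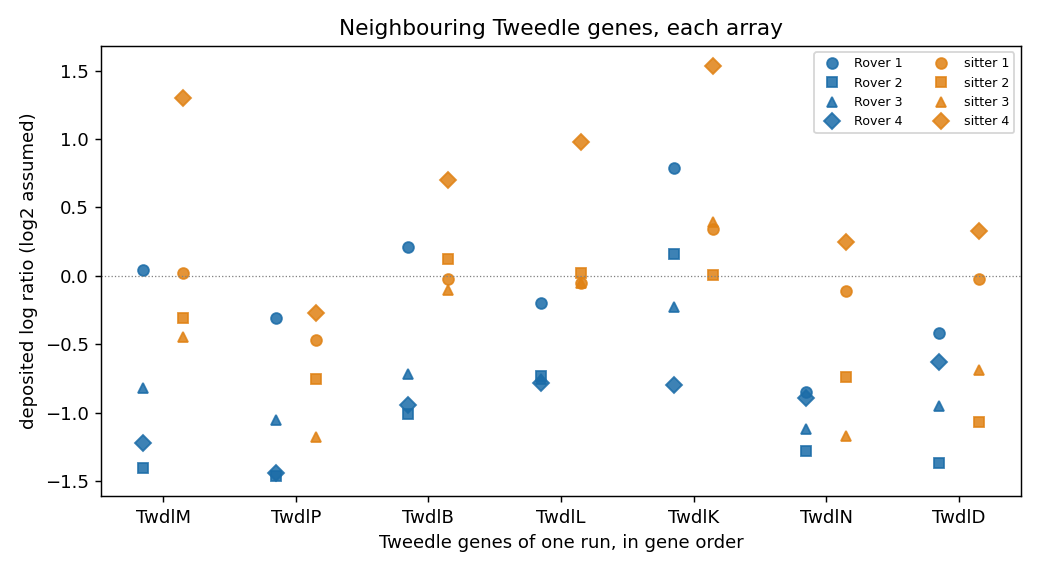
Deposited log ratio of 7 neighbouring Tweedle genes in gene order, with Rover arrays in blue on the left and sitter arrays in orange on the right of each gene, and a marker shape for each replicate. Sitter 4 (orange diamonds) is the highest sitter value for each gene, from -0.27 for TwdlP to 1.53 for TwdlK, and Rover 2 to 4 lie below Rover 1 in each gene.

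Rover minus sitter asks whether the ratio depends on the background. By limma, 0 of the 51 genes were called, and 0.0589% of the named genes were. At an unadjusted p under 0.05 there were 8, or 15.7%, beside 11.4% of the named genes, and after centring 7 beside 9.5%. Of the 8 as deposited, Rover lay below sitter in 6 and above it in 2, Cpr49Ac (0.49) and TwdlT (0.36). Their limma adjusted p were 0.532 and 0.513, and after centring their differences were 0.70 and 0.58. The smallest adjusted p of a cuticle gene was 0.388, for Cpr56F, and after centring 0.332, for TwdlT. Rover lay below sitter in 41 of 51 genes, or 80.4%, beside 75.3% of the named genes, and the median difference was -0.24 beside -0.17. After centring the medians were -0.03 and 0.04. The 4 Rover arrays lay wholly below the 4 sitter arrays in 4 genes, Cpr56F, Cpr62Bb, Cpr11B and TwdlL, and wholly above in 0. Among the named genes this was so in 6.23% and 1.58%.

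Of these, Cpr56F gave -1.27, -0.72, -0.36 and -0.59 in Rover and 0.12, -0.21, -0.10 and -0.01 in sitter, a difference of -0.68 with a 95% interval of -1.15 to -0.21. Its spots differed by 1.69 on Rover 1. Cpr62Bb gave -0.05, -0.78, -1.05 and -0.48 in Rover and 0.19, 0.04, -0.04 and 0.12 in sitter, a difference of -0.67 with an interval of -1.16 to -0.18 (limma adjusted p = 0.419). Cpr62Bc, the next gene along, had a difference of -0.06 with an interval of -0.55 to 0.44.

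The Twdl genes held the most negative differences, TwdlM (-0.99), TwdlL (-0.84) and TwdlB (-0.79), with limma adjusted p of 0.532, 0.411 and 0.471. All 7 genes of the row had Rover below sitter, with a median of -0.60, and after centring of -0.38. The differences were smaller without sitter 4, where TwdlM, TwdlL and TwdlB were at -0.60, -0.59 and -0.61. Within print lot A, with 1 array of each background, TwdlM was at 0.02, TwdlB at 0.23, TwdlK at 0.45 and TwdlP at 0.16. Within print lot B, with 3 arrays of each, they were at -1.33, -1.13, -0.94 and -0.58. These 4 differences were thus negative in lot B and positive in lot A. The other 3 were negative in both, with TwdlL at -0.15, TwdlN at -0.75 and TwdlD at -0.40 in lot A and at -1.07, -0.55 and -0.51 in lot B. On arrays of Cy5 gain 64 alone all 7 were negative. There TwdlM, TwdlP, TwdlB, TwdlL and TwdlK were at -0.77, -0.35, -0.90, -0.74 and -0.49, while TwdlN was at -0.14, beside -0.60 over all arrays, and TwdlD at -0.11, beside -0.48. Sitter 4 is also the one array of lot B with a gain of 68. The arrays of lot A were also those hybridised for 15.75 hours. The part of gain, lot, hybridisation time or array in these values was not tested.

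**Figure D5:**
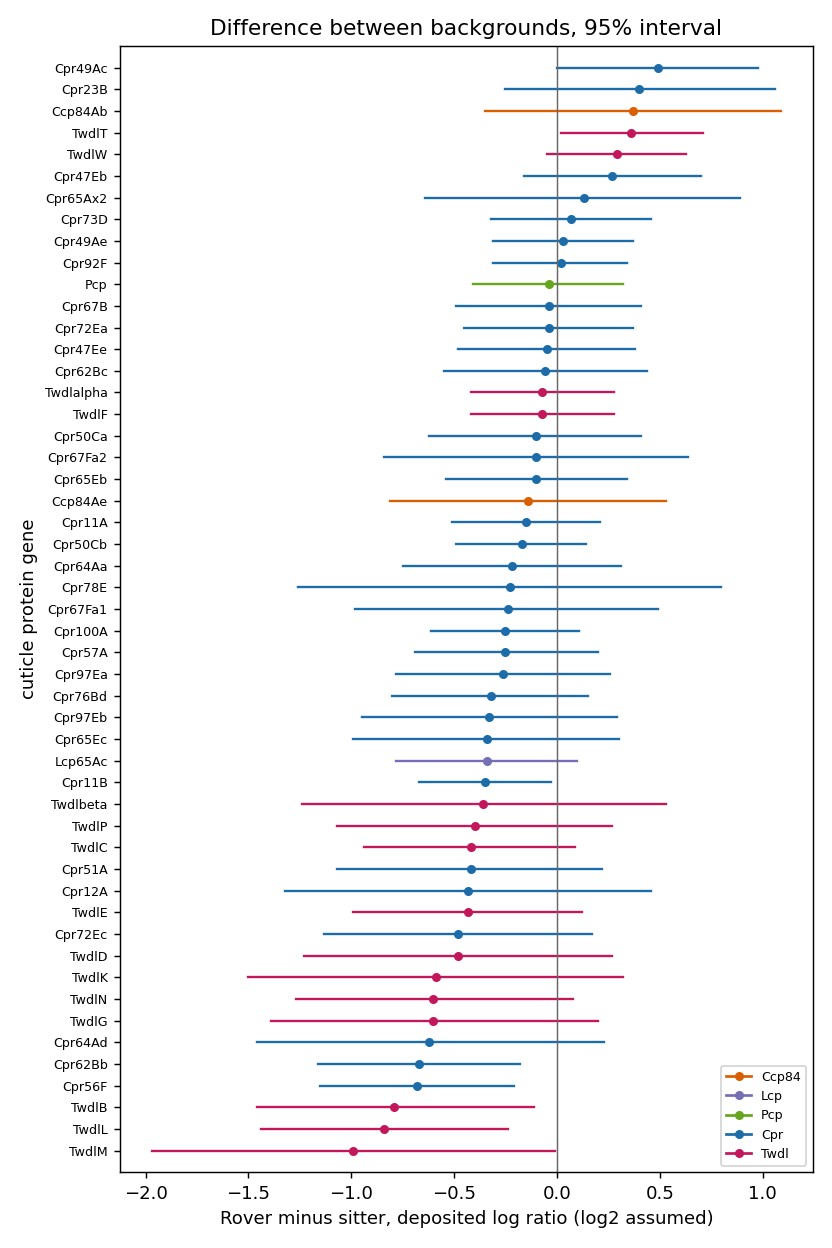
Rover minus sitter of each cuticle protein gene (points, coloured by subfamily) with its 95% interval from limma (lines), in the deposited log ratio. Most points lie left of 0, the Twdl genes TwdlM, TwdlL and TwdlB lie farthest left (-0.99 to -0.79), and no gene passed the adjusted threshold.

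The means of neighbouring cuticle genes differed about as much as those of any 2 members. Over 20 pairs that follow each other in the gene table with up to 5 genes between them, the median gap between their means was 0.46, beside 0.42 over all 1275 pairs of the 51 genes. Some pairs were close: Cpr65Eb and Cpr65Ec had means of -0.71 and -0.68, and Cpr47Eb and Cpr47Ee 0.14 and 0.18. Others were far apart: Cpr72Ea stood at 0.03 and Cpr72Ec at -0.80, TwdlF at 0.08 and TwdlG at -0.65, and TwdlK at 0.27 and TwdlN at -0.74. These gaps are given as a description, since pairs share genes.

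Each gene rested on 2 spots, except Cpr47Ee on 4. The median gap between the spots of a gene on an array was 0.17, and in 86 of 408 values (21.1%) they had opposite signs. The median SD between the arrays of a background was 0.34 for the cuticle genes and 0.29 for the named genes.

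Other genes of cuticle formation were set beside them, from lists made by function. Of 17 genes of cuticle tanning and pigmentation, the steps that harden and darken the cuticle, 11 were called negative over both backgrounds and 0 positive, and the median was -0.58. In Rover the counts were 12 and 0, in sitter 7 and 1. Of the named genes, 44.7% were called negative and 1.72% positive in Rover, and 20.2% and 0.942% in sitter. After centring, 8 were negative and 1 positive over both backgrounds. The lowest adjusted p were those of svr (-1.11), ple (-1.17), y (-1.23) and yellow-h (-0.83), each negative on all 8 arrays. Pale (ple) encodes tyrosine hydroxylase, the first step from tyrosine to the tanning agents, and yellow (y) is needed for black pigment.

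Of 20 genes of chitin synthesis and remodelling, 6 were called negative and 1 positive over both backgrounds with a median of -0.20, and after centring 1 negative and 6 positive. Cht10, a chitinase, was at -0.79 and nst, an enzyme of the route to UDP-GlcNAc, at 0.36. Of 16 other cuticle and matrix proteins, 3 were negative and 1, obst-F at 0.33, positive, with a median of -0.14, and after centring 2 and 8. Of 11 genes of the ecdysone response 7 were negative and 0 positive with a median of -0.41. Among those of smallest p were EcR, the ecdysone receptor, at -0.61 and Hr3, an early-late nuclear receptor, at -0.90. After centring 2 were negative and 3 positive. Of all named genes, 44.9% were called negative and 2.36% positive over both backgrounds as deposited, and 27.1% and 28.9% centred, as given above.

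Lists of other tissues were counted in the same way. Over both backgrounds, 2 of 9 muscle genes, 5 of 17 midgut genes and 2 of 7 genes of late larval glue, puff and storage proteins were negative and 0 positive as deposited, with medians of -0.02, -0.04 and -0.45. After centring, muscle had 1 negative and 5 positive, midgut 0 and 7, and the glue, puff and storage list 1 and 1. Among the named genes 27.1% were then negative and 28.9% positive. The glue, puff and storage list differed between arrays: its median was -0.38, -0.39, 0.85 and 0.79 on Rover 1 to 4, and -0.02, -0.59, -1.49 and -0.70 on sitter 1 to 4. These genes are switched on late in the last larval instar. The part of larval age in the cuticle values was not tested.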

How the data were processed

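Per the labels, 80 µg of total RNA went into each direct labelling, and slides were scanned and read with QuantArray version 3 without background subtraction. The authors deposited 1 ratio per spot and array from normalised data, taken here as log2 values. How they were normalised is not stated in the labels.

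The table held 27648 spots on 8 arrays with 0 missing values. The probe table gave 15116 spots with 1 symbol, 102 with several and none for 12430, which stayed as single features. Spots of a gene were averaged per array, giving 6793 genes and 19325 features. The 51 cuticle genes had 104 spots and all matched the RefSeq table by identifier, with 0 symbols changed. No genome coordinate is given, as the build of the files is not stated.

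The fit was made in R 4.3.3 by limma 3.58.1 and had 1 mean per background (6 residual degrees of freedom), empirical Bayes moderation and Benjamini-Hochberg adjustment over all features. It was first tested on simulated data. Correlations between arrays over features ran from 0.312 to 0.667, none below 0, so no array's sign was turned. The number of arrays limits the precision.

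The members, the gene lists and the tests were chosen with earlier results of these data known. Named were up to 10 called genes per direction and comparison by size, the 5 of smallest p in the difference, the extremes of each subfamily, every Ccp84, Lcp, Twdl and Pcp gene, and up to 4 genes of smallest p per list. Other genes were named after their values were seen. The lists were tanning, chitin, other cuticle and matrix proteins, ecdysone response, glue, puff and storage, muscle and midgut. Alternatives were centring, centring with scaling, a block for print lot or for replicate number, robust moderation, single spots, print lot B alone, Cy5 gain 64 alone, each background by itself and leaving out each array. They overlap in the arrays used, so a count of alternatives that keep a call is not a count of independent checks.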

Additional observations from a re-analysis of the deposited data

Results flagged for a closer look

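Within the 4 arrays of a background, 1 array stood far from the other 3 in 6 of 102 groups (5.88%), and chance alone gives about 5%. Ccp84Ae was at -1.74 on sitter 3, where its spots read -2.52 and -0.97, with the other sitter arrays between -0.60 and -0.39. Cpr67Fa1 was at 0.39 on Rover 1, with the others at -0.93. Cpr72Ea was at 0.21 on sitter 1 and Pcp at -0.44 on sitter 4, each with the other sitter arrays close to 0. TwdlL stood apart in both backgrounds, at -0.20 on Rover 1, with the others between -0.78 and -0.73, and at 0.98 on sitter 4, with the others between -0.05 and 0.02.

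Cpr11B was negative on all 4 Rover arrays (-0.44, -0.19, -0.14 and -0.11) and positive on all 4 sitter arrays (0.15, 0.23, 0.12 and 0.01). The difference was -0.35, with a limma adjusted p of 0.503, so it did not pass. After centring it was -0.13, with an adjusted p of 0.842.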

How the results depend on the processing

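Of the 51 genes, the Rover mean called 27, the sitter mean 10, the mean of both 23 and the difference 0. Of these, 9 in Rover, 0 in sitter and 12 over both kept their call and sign under every alternative. The 12 were Ccp84Ab, Ccp84Ae, Cpr23B, Cpr51A, Cpr64Aa, Cpr65Eb, Cpr72Ec, Cpr73D, Cpr76Bd, Cpr78E, Cpr97Eb and TwdlP. Centred and scaled, 17 were called in Rover and 20 in sitter. Of all 19325 features, 6324 and 6870 were then called, beside 9019 and 4583 as deposited. The sitter count was 5 with print lot as a block, 4 with single spots, 18 on Cy5 gain 64 alone and 3 with sitter fitted by itself. Of all features, 2433 were called in sitter with the lot block, 5931 on gain 64 alone and 2648 with sitter by itself. With single spots, 5382 of the 27648 spots were called in sitter. Without sitter 2 or sitter 3, 24 and 22 of all features were called in sitter. Leaving out an array gave 16 (without Rover 3) to 26 in Rover and 0 (without sitter 2 or without sitter 3) to 13 in sitter. Of the calls, 50% were positive in Rover after centring and 7.41% as deposited, in sitter 14.3% and 10%, and over both 53.6% and 8.7%. The Cpr median minus that of the named genes was -0.08 on Cy5 gain 64 alone. Called genes changed sign after centring in Cpr67B in Rover (0.003), Cpr100A (0.004, and 0.008 with scaling) and Cpr92F (0.078 and 0.023) over both, none of them then called. Cpr49Ae in Rover, and Cpr11A, Cpr11B and Cpr49Ae over both, were not called as deposited and were called with the opposite sign after centring. In the difference 0 were called under any alternative, with 2 to 11 at an unadjusted p under 0.05 and a smallest adjusted p of 0.156. The correlations of same-numbered deviations were 0.31, 0.123, 0.062 and 0.057, and those of other pairs ran from -0.26 to 0.165. The highest was that of Rover 1 and sitter 1, both taken to be of print lot A and both hybridised for 15.75 hours. Whether replicate numbers pair the arrays cannot be decided from these values. With the replicate block the same 4 counts were 26, 12, 22 and 0. The causes were not tested. A leave-one-out fit changes both the number of arrays and which arrays are used, and the part of each was not tested. Spot intensities were not analysed here, so how many spots lay near background is unknown.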
